A study of Mus musculus with 40 samples.

Results

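The transcriptional response of bone marrow-derived macrophages (BMDMs) to lipopolysaccharide (LPS) was described from 20 of the 40 RNA-seq libraries of the series: 10 libraries of cells given LPS and 10 of untreated cells, none of which received the complex I inhibitor piericidin A. The libraries came from 10 mice, 5 labelled VAV-Cre WT and 5 labelled VAV-Cre NDI1, and each mouse gave an untreated and an LPS library, so that the 10 pairs were compared within mice. All mice were of the strain labelled C57/Bl6 and between 8 and 14 weeks old, and both sexes were used. The Vav promoter drives Cre recombinase in blood-forming cells, and NDI1 is the single-subunit NADH dehydrogenase of yeast, which is expressed from the Rosa26 locus after Cre removes a stop cassette and passes electrons from NADH to ubiquinone without the mammalian complex I. The NDI1 transcript was not analysed here. Bone marrow of both genotypes was grown with M-CSF (20 ng/ml), methyl-pyruvate and uridine, harvested on day 6, and the treated cells received 100 ng/ml ultrapure LPS for 4 h.

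LPS is the outer membrane glycolipid of Gram-negative bacteria. It is handed by CD14 to the receptor pair TLR4 and MD-2, which signals through MyD88 to NF-kB and MAP kinases, and through TRIF to IRF3. The first arm induces cytokines, chemokines and the feedback inhibitors that later end the response. The second induces interferon beta, which acts back on the same cells through its receptor and induces the interferon-stimulated genes. Macrophages given LPS also lower many mRNAs of the resting state, and those repressed genes are described here beside the induced ones.

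The 20 libraries held 8446978 to 12316515 counts in genes, with a median of 10416401. The macrophage markers were high in every library, with a summed level of 10 markers between 25769 and 37760 CPM (counts scaled per library) in untreated and between 32990 and 44169 CPM in LPS-treated cells. Markers of T cells (8 genes) and NK cells (5 genes) summed to at most 24.0 and 15.8 CPM in any library, and those of B cells (6 genes) and of fibroblasts and stroma (6 genes) to at most 59.0 and 70.6 CPM. Endothelial markers (5 genes) summed to 4.60 to 12.8 CPM in untreated and 23.5 to 64.5 CPM in LPS libraries. None of Hba-a1, Hbb-bt, Hbb-bs and Alas2 exceeded 3 counts in any library. Neutrophil granule and surface genes (10 markers) summed to 588 and 579 CPM in the untreated libraries of WT mouse 496 and NDI1 mouse 503, and to 1130 and 861 CPM in their LPS libraries, against 16.2 to 118 CPM and 35.8 to 130 CPM in the other 8 mice. Without these 2 mice, 9319 genes were called in place of 9533.

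A gene was called when its Benjamini-Hochberg adjusted p from the edgeR quasi-likelihood test was below 0.05. Of 11467 tested genes, 9533 (83.1%) were called in the pooled comparison of 10 pairs, 4302 (37.5%) higher and 5231 (45.6%) lower with LPS. At least 2-fold changes were called for 1842 genes that were higher (16.1%) and 2026 that were lower (17.7%). The rises reached further than the falls. At least 16-fold (log2 of 4) there were 256 genes higher and 44 lower, and at least 64-fold (log2 of 6) there were 79 higher and 1 lower. The 10 LPS libraries lay entirely above the 10 untreated libraries for 2323 genes (20.3%) and entirely below them for 2395 genes (20.9%). Among the 3868 genes called with at least a 2-fold change, 3681 moved in the same direction in all 10 mice.

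**Figure D1:**
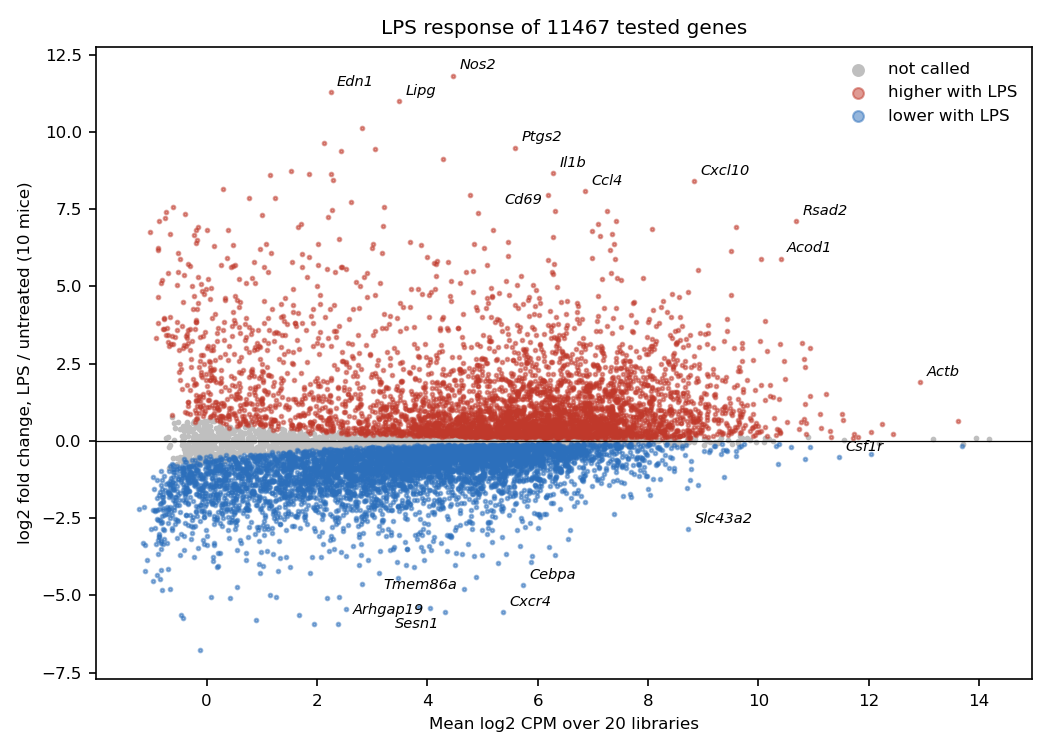
Each point is a tested gene, with its mean log2 CPM over the 20 libraries on the x axis and its log2 fold change between LPS and untreated cells of the same 10 mice on the y axis. Genes called higher are red, genes called lower blue and others grey; rises reach 11.82 (Nos2), while the named falls end at -5.55 (Cxcr4).

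These directions depend on how the libraries were scaled, and the induced mRNAs took up a large part of each LPS library. The 1842 genes that were at least 2-fold higher held 14.1% ± 1.26 (SD, n = 10) of all counts in untreated cells and 44.7% ± 2.77 (n = 10) with LPS. The 256 genes that were at least 16-fold higher went from 0.380% ± 0.0861 to 11.4% ± 1.18. The 2026 genes that were at least 2-fold lower went from 7.70% ± 0.665 to 1.53% ± 0.217. These genes were chosen by their change in the same libraries, so the shares are a description. Trimmed mean (TMM) scaling, which sets aside the genes with the largest differences, gave a median log2 fold change of -0.10 over all tested genes. Scaling by total counts alone gave -0.79, a shift of 0.69, and called 2076 genes higher (18.1%) and 8595 lower (75.0%). Thus 45.1% of called genes were higher with TMM and 19.5% with total counts. Total counts move all genes down together, and of the 4302 genes higher with TMM, 1910 were then below 0. Values below are from TMM. Small rises therefore have no direction independent of the scaling, and medians with total counts are given beside those of the gene groups. Fewer cells of a type and less RNA per cell cannot be told apart in such bulk samples, and the amount of RNA per cell was not measured.

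**Figure D2:**
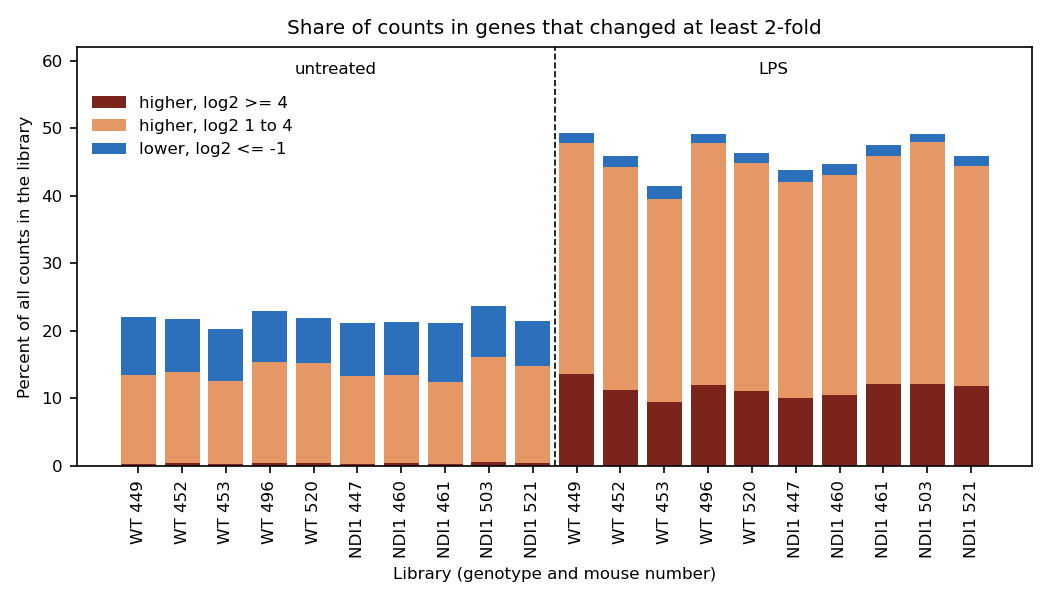
Stacked bars give, for each of the 20 libraries, the percent of its counts in genes called at least 16-fold higher (dark red), 2- to 16-fold higher (orange) or at least 2-fold lower (blue) with LPS. The 2 classes of higher genes together hold 12.4% to 16.2% of the counts in untreated libraries and 39.5% to 47.9% in LPS libraries.

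The largest gains of share by single genes lay between 0.665 and 1.52 percentage points and were those of Rsad2, Acod1, Actb, Cxcl10 and Cmpk2. Rsad2, which encodes the antiviral enzyme viperin, went from 0.0195% of all counts to 1.54%, so that only Lyz2 (2.35% and 1.54%) held a larger mean share in LPS-treated cells. Acod1, the enzyme that makes itaconate, went from 0.0280% to 0.851%, Cxcl10 from 0.00342% to 0.668%, and Cmpk2, a mitochondrial nucleotide kinase, from 0.00944% to 0.674%. Actb, the cytoskeletal actin often used as a reference gene, went from 0.524% to 1.21%. The shares that shrank most were those of abundant lysosomal and macrophage mRNAs, such as Ctsd (1.82% to 1.02%) and Psap (1.80% to 1.05%). On the TMM scale Lyz2 changed by 0.08 ± 0.05 (log2, SE) and Psap by -0.10 ± 0.05, and neither passed the test (edgeR adjusted p = 0.16 and 0.060), whereas Ctsd was called lower (-0.18 ± 0.06, edgeR adjusted p = 0.011). The call of Ctsd was lost with other scaling factors (RLE), with DESeq2, without pairing by mouse and without the 2 mice with high neutrophil markers.

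The largest rise among moderately and highly expressed genes was that of Nos2, the inducible nitric oxide synthase (ENSMUSG00000020826, mm10 chr11:78920787-78960254). Nos2 lay between 0 and 0.674 CPM in the 10 untreated libraries (median 0.303) and between 820 and 1632 CPM with LPS (median 1192). Its log2 fold change was 11.82 ± 0.16 (SE, 10 pairs), with 12.14 in WT and 11.54 in NDI1 mice. With at most 8 counts in an untreated library, the untreated level of Nos2 was close to the counting limit, and its SE, which was derived from the F statistic, may be too small. Lipg, endothelial lipase, rose by 11.00 ± 0.13 from a median of 0.161 CPM to 418 CPM, and its SE may likewise be too small. Ptgs2, the inducible cyclooxygenase of prostaglandin synthesis (chr1:150100031-150108227), rose from 0.779 to 3.58 CPM (median 1.53) to between 710 and 2027 CPM (median 1284), a log2 fold change of 9.49 ± 0.15. In each of these genes every LPS library was above every untreated library.

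Il1b, the precursor of interleukin-1 beta (ENSMUSG00000027398, chr2:129364570-129371139), lay between 2.10 and 7.75 CPM at rest (median 3.61) and between 1052 and 2686 CPM with LPS (median 1434). Its log2 fold change was 8.65 ± 0.17, with 8.66 in WT and 8.65 in NDI1 mice (edgeR adjusted p = 3.86e-17 for the 10 pairs). Il1a rose by 9.13 ± 0.16, and Il27, a cytokine of the IL-12 family, by 9.43 ± 0.13, whose SE may be too small because its untreated level was near 0. Among chemokines, Cxcl10 (chr5:92346638-92348889) went from 9.52 to 44.1 CPM (median 27.9) to 6549 to 10687 CPM (median 8577), and Ccl4 and Ccl7 rose by 8.09 ± 0.11 and 7.97 ± 0.18. The early activation antigen Cd69 (7.95 ± 0.21), the integrin chain Itgb8 (7.56 ± 0.18) and the interferon-inducible Ifi205 (7.45 ± 0.22) completed the 12 largest rises among moderately and highly expressed genes. All 12 rose in all 10 mice, which was a condition of their choice.

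Promoter sequences of 6 induced genes, not chosen by rank, are shown as examples. NF-kB and interferon motifs were found more often in the promoters of the largest rises than in all tested promoters. Sequences are from RefSeq (GRCm38.p6, the build called mm10), which gave 250 bases before and 50 after the start of transcription for 8984 of the tested genes. Motif matches are in capitals and may lie on either strand, and positions count back from the start. The capitals mark matches to the NF-kB consensus, to GAAANNGAA, the core of interferon-stimulated response elements, and to TATAAA:
Cxcl10 (minus strand, chr5:92348973-92349112, bases -223 to -84): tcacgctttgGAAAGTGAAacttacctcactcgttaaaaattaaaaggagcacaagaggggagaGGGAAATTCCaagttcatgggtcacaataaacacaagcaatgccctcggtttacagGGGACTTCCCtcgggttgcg
Nfkbia (minus strand, chr12:55492657-55492710, bases -63 to -10): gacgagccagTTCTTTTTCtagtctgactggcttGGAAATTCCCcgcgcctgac
Ifit1 (plus strand, chr19:34640770-34640823, bases -119 to -66): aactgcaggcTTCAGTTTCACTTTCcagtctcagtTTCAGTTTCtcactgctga
Isg15 (minus strand, chr4:156200866-156200906, bases -88 to -48): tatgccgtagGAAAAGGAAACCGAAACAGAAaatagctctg
Il1b (minus strand, chr2:129371155-129371180, bases -41 to -16): tttttaggacTATAAAacaagggagg
Tnf (minus strand, chr17:35202021-35202046, bases -39 to -14): ccccaagggcTATAAAggcggccgtc

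The Cxcl10 window held an interferon-type match at -213 to -205 and NF-kB matches at -159 to -150 and -103 to -94, while the 3 overlapping matches of Isg15 lay between -78 and -58. For Il1b and Tnf no NF-kB or GAAANNGAA match was found before the start, only TATAAA. Among the 100 genes with the largest called rises that have a promoter in this table, 17.0% held the NF-kB consensus, against 3.00% of the 100 with the largest falls and 6.28% of all 8984 genes. GAAANNGAA was found in 27.0%, 4.00% and 9.05%, respectively, and TATAAA in 26.0%, 13% and 8.33%. For TGACGTCA, the cyclic AMP response element, the shares were 2.00%, 2.00% and 3.66%. TTTGAA or TTCGAA, the core of the cell cycle homology region, was found in 21%, 20.0% and 16.6%. A gene was counted when any of its promoters held the motif on either strand. NF-kB matches can overlap GAAANNGAA matches, and a match is not evidence of binding.

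Cytokine genes had the second highest median of the 37 lists, after the chemokines. Of 29 tested interleukins, TNF family members and growth factors, 21 were called higher, all by at least 2-fold, and 4 lower, with a median log2 fold change of 5.33 (4.64 with total counts) beside -0.10 for all tested genes. Tnf went from 8.17 to 40.1 CPM (median 19.5) to 1033 to 2042 CPM (median 1594), a log2 fold change of 6.37 ± 0.23. Il6, which had at most 0.514 CPM in any untreated library, lay between 87.9 and 303 CPM with LPS. Il10, the main anti-inflammatory cytokine of macrophages, went from a median of 0.945 CPM to 70.0 CPM (6.25 ± 0.11). Il16 fell by 2.52 ± 0.18 on the log2 scale and Vegfa, the vascular growth factor, fell by 1.12 ± 0.10, and both were also lower with total counts (-3.21 and -1.81). Ifnb1, interferon beta itself, had 0 counts in all 10 untreated libraries and 4 to 24 counts with LPS. Against a floor of 3 counts over the untreated group this was at least 44.0-fold higher, on the scale of total counts.

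Chemokines had the highest median of all groups, 6.38 (5.69 with total counts), with 18 of 19 tested members called higher and only Cxcl14 lower (-0.92 ± 0.12). Cxcl11 and Cxcl9, which attract T cells through CXCR3, rose by 9.66 ± 0.17 and 8.62 ± 0.21. Their untreated levels were near 0, so their SE may be too small. Of the Cxcl11 exon bases, 41.7% overlapped another annotated gene, so reads of the gene may be shared. The receptors for chemoattractants split. Of 14 tested, 10 (71.4%) were called higher and 4 (28.6%) lower, against 37.5% and 45.6% of all tested genes (median 0.66, or -0.04 with total counts). The decoy-like receptor Ccrl2 rose by 5.23 ± 0.15 and the formyl peptide receptor Fpr1 by 4.54 ± 0.24. Cxcr4, the receptor that holds cells in the marrow (chr1:128588199-128592293), had the largest fall of all moderately and highly expressed genes: from 233 to 373 CPM at rest (median 273) to 4.30 to 9.86 CPM with LPS (median 5.65), a log2 fold change of -5.55 ± 0.09, with -5.55 in WT and -5.56 in NDI1 mice. Cx3cr1, the fractalkine receptor, fell by 2.40 ± 0.16.

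All 44 tested interferon-stimulated genes were called higher, 42 of them by at least 2-fold (median 3.87, or 3.18 with total counts, which called 43 higher). Rsad2 (chr12:26442753-26456452) went from 66.8 to 279 CPM (median 134) to 15374 to 25900 CPM (median 19980). Cmpk2, its neighbour in the genome, rose by 6.92 ± 0.20 and Ifit2, an inhibitor of viral mRNA translation, by 5.89 ± 0.20. The smallest changes in the list were those of Irf9 (0.91) and Irf8 (0.82), the first a subunit of the interferon-activated factor ISGF3. In 34 of these genes with a promoter in the table, 61.8% held GAAANNGAA and 11.8% the NF-kB consensus; the motif shares of single lists were computed after the gene values were known.

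The receptor machinery of LPS itself changed in both directions. Of 24 tested receptors and adaptors, 19 (79.2%) were called higher and 4 (16.7%) lower, against 37.5% and 45.6% of all tested genes (median 0.87, or 0.17 with total counts). Tlr3, the receptor for double-stranded RNA, rose by 3.75 ± 0.09 and the adaptor Myd88 by 2.70 ± 0.06. Cd14 and Ly96, which encodes MD-2, were higher (1.99 ± 0.13 and 0.97 ± 0.08, or 1.3 and 0.28 with total counts). Tlr4 was lower, with a median of 140 CPM at rest and 102 CPM with LPS and overlapping groups (-0.34 ± 0.08, edgeR adjusted p = 5.93e-04). The kinase Irak4 fell by 1.08 ± 0.05 and Tlr13, a sensor of bacterial ribosomal RNA, by 1.44 ± 0.09 (a log2 fold change of -1.44).

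NF-kB subunits and inhibitors rose nearly as a group. Of 24 tested members, 22 were called higher and 1, the adaptor Traf3 (-0.58 ± 0.07), lower, with a median of 1.97 (1.27 with total counts). The nuclear inhibitor Nfkbiz rose most, by 5.91 ± 0.14, followed by Tnfaip3, which encodes the ubiquitin-editing inhibitor A20, by 4.75 ± 0.15. Of 20 AP-1, EGR and MYC factors, 13 (65%) were called higher and 2 (10%) lower, against 37.5% and 45.6% of all tested genes (median 1.15, or 0.46 with total counts). Batf2 and the MYC antagonist Mxd1 rose by 4.90 ± 0.09 and 4.10 ± 0.12. Fos, an immediate early gene, fell by 0.88 ± 0.07. The fall of Fosb (-0.75 ± 0.32, edgeR adjusted p = 0.040) was not called when any of 6 single mice was left out (-0.75 to -0.61, adjusted p between 0.058 and 0.12), nor with RLE factors (-0.68, adjusted p = 0.060) or by DESeq2 (-0.70, adjusted p = 0.052).

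Feedback genes moved in both directions. Of 26 MAP kinase phosphatases, SOCS proteins and RNA-decay factors, 19 (73.1%) were called higher and 7 (26.9%) lower, against 37.5% and 45.6% of all tested genes (median 1.40, or 0.71 with total counts). Socs3, an inhibitor of cytokine receptor signalling, rose by 7.43 ± 0.16 and Dusp2, a nuclear MAP kinase phosphatase, by 6.36 ± 0.10. Of the TTP family, which destabilizes AU-rich mRNAs, Zfp36 rose by 3.12, whereas Zfp36l1 and Zfp36l2 fell by 3.57 ± 0.11 and 2.37 ± 0.13. Of the Zfp36l1 exon bases, 55.9% overlapped another annotated gene. Zfp36 was named after its value was seen.

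The inflammasome is the complex that activates caspase-1 and matures IL-1 beta and IL-18. Of 18 tested genes, 15 (83.3%, against 37.5% of all tested genes) were called higher and 3 lower with TMM (median 1.31), and 10 higher and 7 lower with total counts (median 0.62). The sensor Nlrp3 (chr11:59541568-59566956) went from 34.8 to 152 CPM (median 76.6) to 1006 to 1714 CPM (median 1482), a log2 fold change of 4.17 ± 0.21 with 4.15 in WT and 4.19 in NDI1 mice. Casp1 rose by 2.34 ± 0.08 and Il18 by 2.89 ± 0.10. The pore-forming protein gene Gsdmd rose by 1.57 ± 0.05, and the adaptor Pycard by 1.11 ± 0.07. P2rx7, the receptor for extracellular ATP, fell by 1.81 ± 0.07 and Nlrp1b by 2.15 ± 0.16 (log2 fold changes of -1.81 and -2.15).

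Genes for class I presentation and for costimulation were mostly higher, and the direction of class II genes depended on the scaling. Of 17 class I genes, 15 were called higher and 0 lower (median 1.62, or 0.93 with total counts). The other 2, Pdia3 and Calr, had log2 fold changes of 0.10 and -0.01 and did not pass the test. The transactivator Nlrc5 rose by 3.76 ± 0.08 and the peptide transporter Tap1 by 3.41 ± 0.07. Of 11 class II genes, 8 (72.7%) were called higher and 1 (9.1%) lower, against 37.5% and 45.6% of all tested genes (median 0.38). With total counts 1 was higher and 7 lower, where 18.1% and 75.0% of all tested genes were (median -0.31). March1, a ubiquitin ligase that removes class II molecules from the surface, rose by 1.97 ± 0.10, and H2-Ab1 by 0.71 ± 0.05, a rise that was lost with total counts (0.02). Of 21 costimulation and adhesion genes, 19 were called higher and 2 lower (median 2.25, or 1.57 with total counts), led by Cd69 and Cd40 (6.71 ± 0.25). Vsir, which encodes the checkpoint ligand VISTA, fell by 1.3 ± 0.07.

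Cytokine receptors showed a smaller and mixed change. Of 22 tested, 15 (68.2%) were called higher and 7 (31.8%) lower, against 37.5% and 45.6% of all tested genes (median 0.88, or 0.19 with total counts). Il15ra, which presents IL-15 to lymphocytes, rose by 5.94 ± 0.10 and Il13ra1 by 2.68 ± 0.12. The IL-6 receptor chains fell together, Il6ra by 2.21 ± 0.09 and the signalling chain Il6st by 1.37 ± 0.04. Csf1r, the M-CSF receptor on which these cells depend, went from 2723 to 4397 CPM (median 3318) to 1852 to 2935 CPM (median 2403) and fell in all 10 mice (-0.52 ± 0.05, edgeR adjusted p = 4.00e-08).

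Of 17 prostaglandin and leukotriene genes, 6 (35.3%) were called higher and 9 (52.9%) lower, against 37.5% and 45.6% of all tested genes (median -0.27, or -0.96 with total counts). The largest rises were those of the inducible route, Ptgs2 and the terminal synthase Ptges (5.16 ± 0.14). The receptors Ptger2 and Ptger3 fell by 1.61 ± 0.11 and 1.56 ± 0.47. Of 17 genes for nitric oxide, arginine, itaconate and superoxide, 13 were called higher and 2 lower (median 1.12, or 0.43 with total counts). Acod1 (chr14:103046977-103056573) went from 30.8 to 381 CPM (median 255) to 8750 to 12032 CPM (median 11168), a log2 fold change of 5.90 ± 0.37. Asl, an arginine-recycling enzyme, fell by 0.28 ± 0.06.

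**Figure D3:**
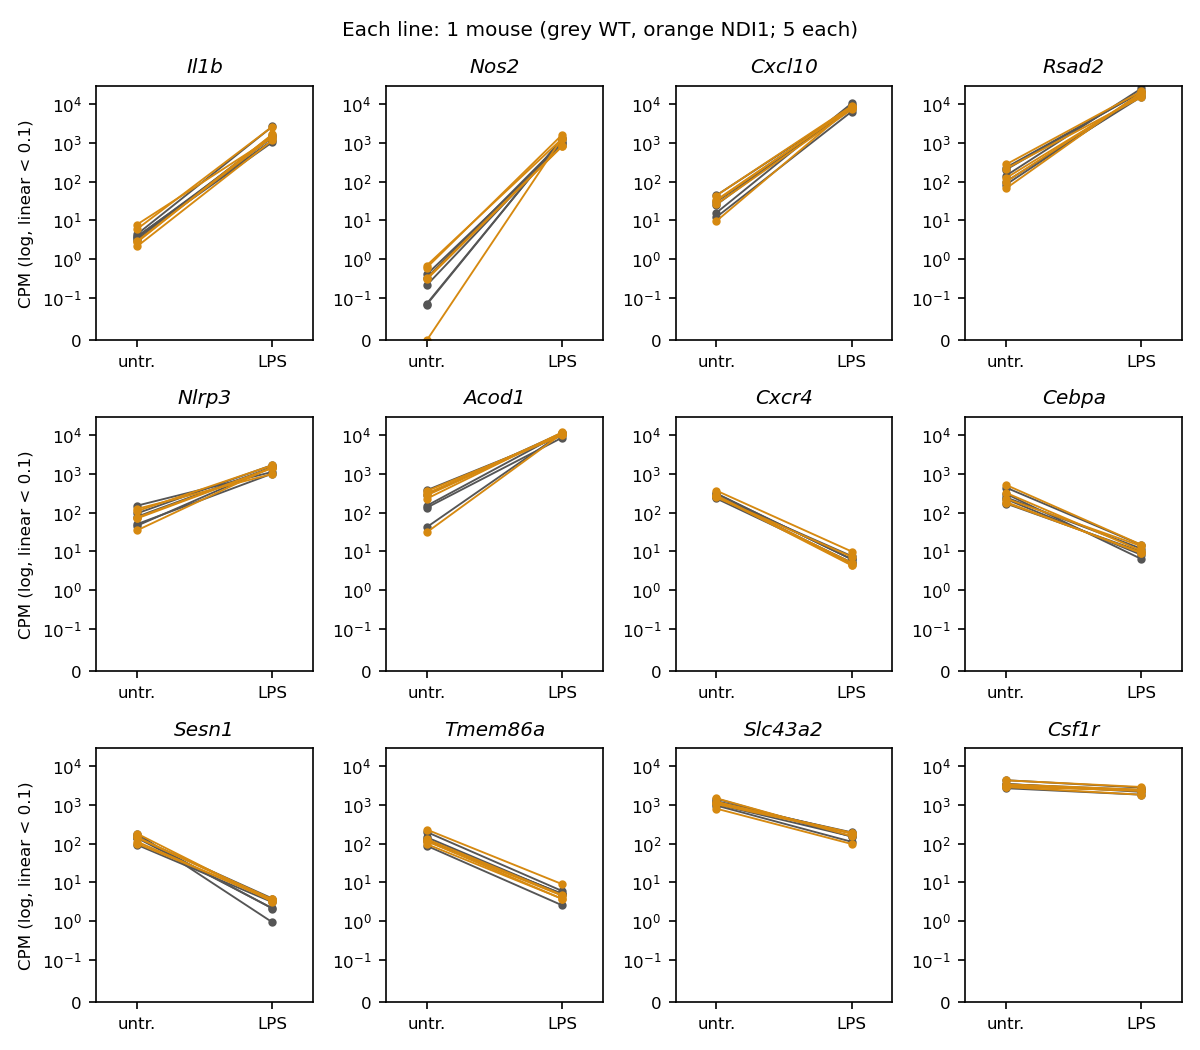
Each line joins the untreated and the LPS level of a gene (y axis, CPM on a log scale, linear below 0.1) in 1 mouse, grey for the 5 WT and orange for the 5 NDI1 mice. All lines of Il1b, Nos2, Cxcl10, Rsad2, Nlrp3 and Acod1 rise and all lines of Cxcr4, Cebpa, Sesn1, Tmem86a, Slc43a2 and Csf1r fall; untreated Acod1 spans 30.8 to 381 CPM and LPS-treated Acod1 8750 to 12032 CPM.

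**Figure D4:**
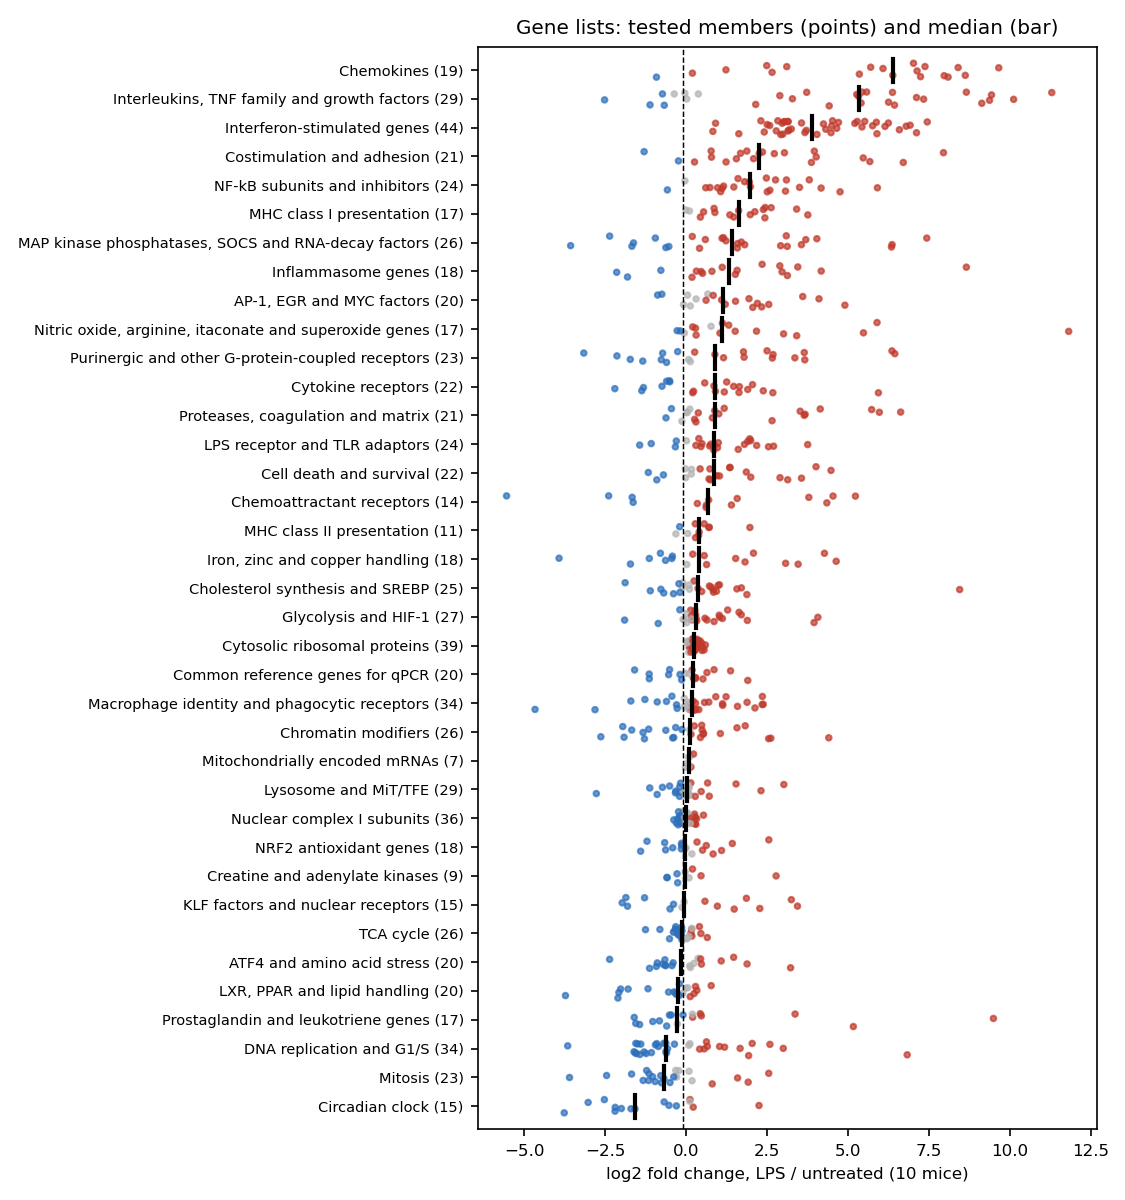
Points are the tested members of 37 gene lists (number in parentheses) by log2 fold change between LPS and untreated cells of 10 mice, red when called higher, blue when called lower and grey otherwise. Black bars are list medians, from 6.38 for chemokines to -1.58 for the circadian clock, and the dashed line is the median of all tested genes, -0.10.

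After Cxcr4, the largest falls among moderately and highly expressed genes were those of Sesn1, Arhgap19 and Engase. Sesn1, a stress-inducible inhibitor of the growth kinase mTORC1 (ENSMUSG00000038332, chr10:41810574-41908424), went from 93.3 to 183 CPM (median 144) to 0.919 to 3.79 CPM (median 3.22). This was a log2 fold change of -5.53 ± 0.15, with -5.82 in WT and -5.29 in NDI1 mice. Arhgap19, a GTPase-activating protein gene, went from a median of 124 CPM to 2.57 CPM (-5.40 ± 0.12), and Engase, a cytosolic glycosidase gene, from 92.1 to 2.11 CPM (-5.37 ± 0.13). The untreated and LPS groups of all these genes were far apart.

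Tmem86a, which encodes an enzyme that splits lysoplasmalogens, fell by 4.80 ± 0.06, and its paired changes had an SD of 0.182 over the 10 mice. The transcription factor gene Cebpa (chr7:35119293-35121926), which is needed for the myeloid lineage, went from 172 to 523 CPM (median 240) to 6.30 to 14.7 CPM (median 10.0), a log2 fold change of -4.67 ± 0.12. Klhl21 (-4.44 ± 0.14), the arrestin-like gene Arrdc3 (-4.41 ± 0.09), 6430548M08Rik (-4.26 ± 0.14), Susd3 (-4.08 ± 0.08), Vgll4, a TEAD cofactor (-4.02 ± 0.13), and Rassf3 (-4.02 ± 0.10) made up the 12. All 12 fell in all 10 mice, which was a condition of their choice. The estimate closest to 0 in either genotype was that of Vgll4 in WT mice (-3.92). On the linear scale, 1 of the largest losses was that of Slc43a2, a transporter of large neutral amino acids, from a median of 1159 CPM to 169 CPM (-2.86 ± 0.08).

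Genes of macrophage identity moved in both directions. Of 34 tested, 20 (58.8%) were called higher and 9 (26.5%) lower with TMM, against 37.5% and 45.6% of all tested genes (median 0.18). With total counts 10 were higher and 23 lower, where 18.1% and 75.0% of all tested genes were (median -0.51). The Fc receptors Fcgr1 and Fcgr4 rose by 2.38 ± 0.08 and 2.35 ± 0.09. Cebpa fell as above, and Gpr34, a receptor for lysophosphatidylserine, fell by 2.82 ± 0.15. Of 15 KLF factors and nuclear receptors, 7 (46.7%) were called higher and 6 (40%) lower, against 37.5% and 45.6% of all tested genes (median -0.06, or -0.76 with total counts, which called 6 higher and 8 lower), from Nr4a3 (3.44 ± 0.22) and Klf7 (3.25 ± 0.12) to Klf11 (-1.98 ± 0.10).

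The circadian clock had the lowest median of the 37 lists, -1.58 (-2.27 with total counts). Of 15 tested genes, 11 (73.3%) were called lower and 3 (20%) higher, against 45.6% and 37.5% of all tested genes. The output factors Dbp and Tef, which are direct targets of the clock, fell by 3.77 ± 0.13 and 3.03 ± 0.10. Of the Dbp exon bases, 18.0% overlapped another annotated gene. Nfil3, which binds the same sites as Dbp and Tef and represses them, rose by 2.25 ± 0.10. The core repressor Cry1 changed little (0.21 ± 0.07, or -0.48 with total counts). The time of day of harvest is not given in the sources used here.

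Cell cycle genes moved in both directions. Of 34 DNA replication and G1/S genes, 20 (58.8%) were called lower and 12 (35.3%) higher, against 45.6% and 37.5% of all tested genes (median -0.62, or -1.31 with total counts). Their mean paired log2 change lay near 0, between -0.202 and 0.105 in single mice. The activator E2f2 fell by 3.66 ± 0.17 and the helicase subunit Mcm7 by 1.61 ± 0.11, whereas Ccnd2, cyclin D2, rose by 6.83 ± 0.14 and Cdkn1a, the cell cycle inhibitor p21, by 3.00 ± 0.10. Of 23 mitosis genes, 14 (60.9%) were called lower and 4 higher (median -0.69, or -1.38 with total counts), and the mean paired change lay between -0.898 and 0.0144 in single mice. The phosphatase Cdc25b fell by 3.61 ± 0.14 and Kif23 by 2.46 ± 0.20, while the spindle genes Tpx2 and Cenpe rose by 2.55 ± 0.09 and 1.91 ± 0.08. Most of these genes were scarce, since Tpx2, Cenpe and Kif23 had mean untreated levels of 6.79, 4.58 and 4.74 CPM.

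Lipid genes moved in both directions. Of 25 cholesterol synthesis and SREBP genes, 14 (56%) were called higher and 7 (28%) lower with TMM, against 37.5% and 45.6% of all tested genes (median 0.36). With total counts 8 were higher and 14 lower, where 18.1% and 75.0% of all tested genes were (median -0.33). Ch25h, which makes 25-hydroxycholesterol, rose by 8.45 ± 0.14 from a mean of 0.192 CPM to 74.7 CPM, and its SE may be too small at this untreated level. The late synthesis enzyme Dhcr7 fell by 1.89 ± 0.11. Of 20 LXR, PPAR and lipid handling genes, 12 (60%) were called lower and 5 (25%) higher, against 45.6% and 37.5% of all tested genes (median -0.26). With total counts 19 were lower and 0 higher, where 75.0% and 18.1% of all tested genes were (median -0.96). Rxra, the shared partner of LXR and PPAR receptors, fell by 3.73 ± 0.10 and Ppard by 2.11 ± 0.08. The rises of Scd1 (0.77 ± 0.23) and Fabp4 (0.33 ± 0.12) were not kept with total counts (0.07 and -0.36).

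Lysosomal genes had a median close to that of all genes. Of 29 tested, 8 (27.6%) were called higher and 11 (37.9%) lower, against 37.5% and 45.6% of all tested genes (median 0.01). With total counts 3 were called higher and 24 lower (median -0.68), where 18.1% and 75.0% of all tested genes were. The protease gene Ctsc rose by 3.02 ± 0.09. Within the family of transcription factors that control lysosome genes, Tfec rose by 2.31 ± 0.09 and Tfeb fell by 2.78 ± 0.11. Of 18 genes for iron, zinc and copper, 10 (55.6%) were called higher and 7 (38.9%) lower, against 37.5% and 45.6% of all tested genes (median 0.38). With total counts 7 were higher and 10 lower, where 18.1% and 75.0% of all tested genes were (median -0.31). The metallothionein gene Mt2 rose by 4.63 ± 0.12. Slc40a1, ferroportin, the only known exporter of iron, fell by 3.93 ± 0.10 from a mean of 234 CPM to 15.2 CPM, and the ferritin light chain gene Ftl1 by 0.43 ± 0.06. Of 23 purinergic and other G-protein-coupled receptor genes, 13 (56.5%) were called higher and 8 (34.8%) lower, against 37.5% and 45.6% of all tested genes (median 0.89, or 0.19 with total counts). The adenosine receptor Adora2a and the hydroxycarboxylic acid receptor Hcar2 rose by 6.45 ± 0.17 and 6.36 ± 0.16, and the lipid receptor S1pr1 fell by 3.17 ± 0.11.

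The lists of central energy metabolism had medians nearer to that of all genes. Of 27 glycolysis and HIF-1 genes, 19 (70.4%) were called higher and 3 (11.1%) lower with TMM, against 37.5% and 45.6% of all tested genes (median 0.30). With total counts 10 were higher and 16 lower, where 18.1% and 75.0% of all tested genes were (median -0.39). The rises centred on Pfkfb3, a regulator of phosphofructokinase (4.07 ± 0.09), and the transporter Slc2a6 (3.95 ± 0.21), while Pfkfb4, its relative, fell by 1.90 ± 0.10. Of 26 TCA cycle genes, 15 (57.7%) were called lower and 6 (23.1%) higher, against 45.6% and 37.5% of all tested genes (median -0.14). With total counts 25 were lower and 0 higher, where 75.0% and 18.1% of all tested genes were (median -0.84). The lowest were Idh1 and Aco1 (-1.26 ± 0.07 and -0.81 ± 0.07). Idh1 and Aco1 encode cytosolic enzymes. Dld and Dlst were the highest (0.65 ± 0.05 and 0.45 ± 0.04), and both were below 0 with total counts (-0.04 and -0.24).

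On the TMM scale none of the 36 nuclear genes for complex I subunits changed by 2-fold, and 11 (30.6%) were called higher, 9 (25%) lower and 16 did not pass (median -0.02), where 37.5% of all tested genes were called higher and 45.6% lower. With total counts all 36 were called lower (median -0.71), where 75.0% of all tested genes were (median -0.79), so that the direction of this list depends on the scaling. The values ran from -0.39 ± 0.04 (Ndufa6) to 0.53 ± 0.07 (Ndufs4), and the same genes were at -1.08 and -0.16 with total counts. Of 7 tested mitochondrially encoded mRNAs, 2 (28.6%) were called higher, against 37.5% of all tested genes. These were mt-Co1 (0.23 ± 0.05) and mt-Nd5 (0.15 ± 0.06), and both were lower with total counts (-0.47 and -0.55). The call of mt-Nd5 was lost without NDI1 mouse 460 (0.117). Together the mitochondrial genes held only 0.607% ± 0.162 of counts at rest and 0.443% ± 0.101 with LPS (n = 10 each); reads shared with nuclear copies of these genes cannot be assigned by counting and were not analysed here. Of 9 creatine and adenylate kinase genes, 3 (33.3%) were called higher and 4 (44.4%) lower, against 37.5% and 45.6% of all tested genes (median -0.03, or -0.73 with total counts). Ak4, the adenylate kinase of the mitochondrial matrix, rose by 2.78 ± 0.20, and the creatine transporter Slc6a8 fell by 0.60 ± 0.04. Ckb, brain-type creatine kinase, lay between 95 and 168 CPM at rest and between 98.9 and 141 CPM with LPS and did not pass the test (-0.03 ± 0.07, edgeR adjusted p = 0.66).

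Of 18 NRF2 antioxidant genes, 7 (38.9%) were called higher and 8 (44.4%) lower, near the 37.5% and 45.6% of all tested genes (median -0.03, or -0.72 with total counts). The cystine transporter Slc7a11 rose by 2.55 ± 0.23, whereas Gclc and Gclm, the subunits of the enzyme that starts glutathione synthesis, fell by 1.41 ± 0.09 and 1.21 ± 0.09. Of 20 ATF4 and amino acid stress genes, 6 (30%) were called higher and 10 (50%) lower, also near the shares over all tested genes (median -0.15, or -0.84 with total counts), from Nupr1 (3.22 ± 0.16) to Sesn2 (-2.37 ± 0.10). Ddit3, which encodes the stress factor CHOP, fell by 1.13 ± 0.07. Of 22 cell death and survival genes, 15 were called higher and 3 lower (median 0.85, or 0.15 with total counts). Ripk2 and Cflar, which encodes the caspase-8 inhibitor cFLIP, rose by 4.47 ± 0.10 and 4.01 ± 0.10, and the BH3-only gene Bbc3 fell by 1.17 ± 0.08.

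Of 26 chromatin modifier genes, 13 (50%) were called higher and 12 (46.2%) lower, against 37.5% and 45.6% of all tested genes (median 0.13), and with total counts 6 higher and 20 lower (median -0.56). The histone methyltransferase gene Setdb2 rose by 4.40 ± 0.08, and the deacetylase genes moved in opposite directions, with Hdac9 at 2.61 ± 0.13 and Hdac5 at -2.64 ± 0.09. The H3K4 demethylase gene Kdm5b fell by 1.96 ± 0.09. Of 21 protease, coagulation and matrix genes, 15 were called higher and 2 lower (median 0.88, or 0.19 with total counts), led by the collagenase Mmp13 (6.62 ± 0.19) and the plasminogen activator inhibitor Serpinb2 (5.97 ± 0.22). Timp2 and Mmp19 fell by 0.46 ± 0.05 and 0.63 ± 0.13. In 6 of the 37 lists the median log2 fold change was below 0 and the mean above it, namely the prostaglandin, complex I, creatine and adenylate kinase, NRF2, ATF4 and KLF lists.

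Genes often taken as stable references were called about as often as other genes. Of 20 such genes, 11 were called higher and 7 lower, where 83.1% of all tested genes were called, and 2 were at least 2-fold higher and 3 at least 2-fold lower (median 0.20). With total counts 3 were called higher and 16 lower (median -0.49). Actb went from 3368 to 5993 CPM (median 3698) to 11904 to 22063 CPM (median 14004), a log2 fold change of 1.90 ± 0.06. Ywhaz rose by 1.37 ± 0.06 and Polr2a fell by 1.15 ± 0.04. Hprt and Rpl13a did not pass the test (-0.04 and 0.09). Of 39 cytosolic ribosomal protein genes, 35 were called higher and 0 lower by TMM. Their median of 0.22 turned to -0.47 with total counts, by which all 39 were called lower, so that this group has no direction independent of the scaling. Many ribosomal protein genes have processed copies, and their counts are uncertain for that reason.

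Some mRNAs were close to absent at rest. Of the tested genes, 46 had at most 3 counts in each untreated library, and all 46 were called higher. The most abundant of these with LPS was Edn1, endothelin-1 (chr13:42301270-42307989), with 4 counts over all 10 untreated libraries and 602 to 1158 counts in each LPS library. Next came Cxcl11 (11 counts at rest and 373 to 1274 in each LPS library), the aggrecanase Adamts4 (9 counts, then 144 to 492), the serine protease inhibitor Serpina3f (6 counts, then 90 to 296) and the Notch ligand Dll1 (11 counts, then 83 to 197). In reverse, 49 genes had at most 3 counts in each LPS library, and all 49 were called lower. A gene that passes the low-count filter only through the treatment where it is high had to differ, so these counts describe the genes and are no test.

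The size of the response varied little between mice. For a mouse, the response slope is that of its paired log2 changes over all tested genes on the mean changes of the other 9 mice. It lay between 0.924 and 1.10, and the 10 mice correlated with the mean of the others at 0.945 to 0.972 across genes, which are not independent replicates. Among 1286 well-expressed genes that changed at least 2-fold, the SD of the paired change over the 10 mice had a median of 0.235 on the log2 scale. The steadiest were Ddx5, an RNA helicase gene (1.11, SD 0.0632), Slc39a1 (1.16, SD 0.0725), Mmadhc (1.12, SD 0.0726), the splicing factor gene Srsf3 (1.35, SD 0.0748) and Tab2, an adaptor of the kinase TAK1 (1.87, SD 0.0781). The most variable was Acod1 (SD 1.31), followed by Marcksl1 (SD 1.08), Gpr84 (SD 1.05), Icosl (SD 0.928) and Slc7a11 (SD 0.919).

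For Acod1 the variation came from the untreated libraries. WT mouse 449 and NDI1 mouse 461 had untreated levels of 41.9 and 30.8 CPM, and the other 8 mice lay between 134 and 381 CPM, whereas the LPS levels of all 10 mice lay between 8750 and 12032 CPM. The same mice were the lowest at rest for Marcksl1 (59.4 and 47.5 CPM against 129 to 545 CPM), Gpr84 (10.3 and 6.32 CPM against 13.8 to 90.8 CPM) and Icosl (8.54 and 7.5 CPM against 10.7 to 53.3 CPM). WT mouse 449 and NDI1 mouse 461 also had the largest response slopes, 1.09 and 1.10. Their neutrophil markers at rest were the lowest of the 10 mice, 29.1 and 16.2 CPM. In WT mouse 453, which had the smallest slope (0.924), they were the next lowest, 35.2 CPM. The part of these cells in the result was not tested. Over 432 genes that rose at least 4-fold from a mean of at least 10 CPM, the SD between mice of a genotype had a median of 0.329 at rest and 0.267 with LPS and was larger at rest in 62.7% of genes, against 28.0% of 1042 genes that were not called.

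The LPS effects were also estimated in each genotype. In WT mice 3934 genes (34.3%) were called higher and 4697 (41.0%) lower, and in NDI1 mice 3952 (34.5%) and 4695 (40.9%). Of the 8032 genes called in both genotypes, 8031 had the same direction. Over the 3868 genes called with at least a 2-fold change in the pooled comparison, the median size of the difference between genotypes was 0.125 on the log2 scale. Among list medians there were 3.88 in WT and 3.87 in NDI1 for interferon-stimulated genes, 6.46 and 6.56 for chemokines, 1.97 and 1.96 for NF-kB genes, 1.32 and 1.31 for inflammasome genes, and -1.62 and -1.47 for the circadian clock. The widest gap among the 37 lists was that of the prostaglandin and leukotriene genes, with -0.09 in WT and -0.36 in NDI1 mice. The mean paired changes of this list in single mice overlapped, from 0.558 to 0.799 in WT and from 0.568 to 0.771 in NDI1 mice.

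No gene passed the edgeR test of the difference between the genotypes' LPS effects (0 of 11467 genes called, smallest adjusted p = 1.00, 198 genes at an unadjusted p below 0.05 where 573 are expected by chance, 0 genes by DESeq2). A p that misses the threshold does not show that the effects were equal. With fewer small p-values than chance gives, this test was conservative, so the absence of calls is weak evidence. The 95% interval of the difference, NDI1 minus WT, lay within -1 and 1 for 9526 genes (83.1%) and for 2730 (70.6%) of the 3868 genes that changed at least 2-fold, and its half-width had a median of 0.332. The interval ran from -0.67 to 0.64 for Il1b, from -0.81 to 0.90 for Nlrp3, from -0.91 to 0.86 for Tnf, from -0.83 to 0.69 for Rsad2 and from -0.41 to 0.40 for Cxcr4. The interval of Nos2, from -1.79 to 0.59, was wider. The 3 genes with the smallest unadjusted p were 1700037C18Rik, Sh2d1b1 and Foxm1, with differences of 1.80, -3.39 and -1.14. Their highest level in any library was 4.44 CPM (Sh2d1b1), and each had an adjusted p of 1.00.

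The response slopes also overlapped. They averaged 0.995 ± 0.0643 in the WT group and 0.989 ± 0.0624 in the NDI1 group (SD over 5 mice each), a difference of -0.00632 (two-sided exact permutation test over 252 assignments, p = 0.86). These p-values measure the spread between 5 mice a genotype, each of which gave 1 library per treatment.

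**Figure D5:**
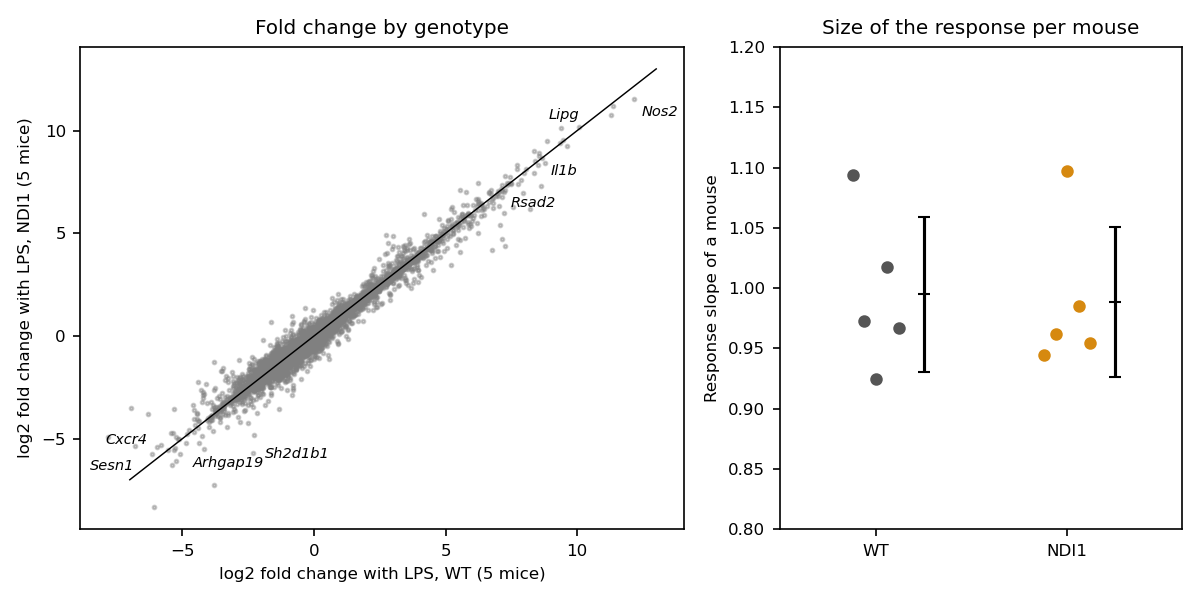
Left, the log2 fold change of each tested gene with LPS in the 5 WT (x axis) and the 5 NDI1 mice (y axis), with the line of equal change. Right, the response slope of each mouse with the mean and SD per genotype (0.995 ± 0.0643 in WT and 0.989 ± 0.0624 in NDI1), which overlap.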

How the data were processed

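Poly(A) mRNA libraries (NEBNext Ultra) of 10 mice, untreated and with LPS, were sequenced by the authors on a NextSeq 500. The authors demultiplexed with bcl2fastq, trimmed with Trimmomatic, aligned to mm10 with STAR and counted exon reads with HTSeq. The deposited table holds raw read counts per gene, not normalized, and the length of each gene model in bases. The versions of bcl2fastq, STAR and HTSeq, the annotation release and the strand setting are not given in the sources used here, so reads of overlapping and antisense genes cannot be told apart, and counts of near-identical copies are uncertain. The table has 1 column of reads assigned to no library, which was not used. Symbols were found for 42462 of 43430 gene IDs, and exon overlap was computed from GENCODE M21, in which 33497 of 42462 shared genes have the coordinates of the deposited table.

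The members and gene lists were chosen with earlier results of these data known. Counts were filtered with filterByExpr, scaled by TMM and tested with edgeR 4.0.16 (R 4.3.3) by the quasi-likelihood method with the mouse as a block, over 11467 genes. CPM are on TMM-scaled library sizes, and paired log2 changes used a prior count of 2. SE and intervals of log2 fold changes were derived from the estimate and its F statistic. They are approximate and may be too small where one group holds few counts. The total counts of 8446978 to 12316515 per library set the precision of low levels, and floors cover counting error only. The fits were tested on simulated data. Same-numbered libraries come from 1 mouse, and their deviations from the group means correlated at 0.274 to 0.641. No 2 replicate libraries agreed within sampling noise (chi-square per degree of freedom at least 9.75). Alternatives were DESeq2 1.42.0, other scalings, filters and prior counts, no block, all 40 libraries, and leaving out mice.

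Named genes were the 12 largest rises and falls that moved one way in 10 pairs and reached 3 on the mean log2 CPM scale, the 6 largest gains and losses of mean CPM, the 2 largest called rises and falls in a list, the 5 most and least variable genes, 5 genes with at most 3 counts in each untreated library, the 3 smallest p-values of the genotype difference, and genes the study discusses; 5 genes named by this rule are not reported here. Tlr4, Cd14, Ly96, Ifnb1, Irf8, Irf9, Zfp36, Pdia3, Calr, Hprt, Rpl13a, Lyz2, Nfkbia, Ifit1 and Isg15 were named after their values were seen.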

Additional observations from a re-analysis of the deposited data

Results flagged for a closer look

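A value that stood apart from the other 4 mice of its genotype was looked for in 140 groups of 5 mice, and 14 were found (10.0%); chance gives about 1 in 20 such groups when they are independent, and these groups share mice and genes. The values are given without an explanation. NDI1 mouse 461 stood apart 6 times, each time with a larger change: its response slope was 1.10 against 0.944 to 0.985 in the other NDI1 mice, its mean paired log2 change was 1.38 against 0.676 to 0.850 for chemoattractant receptors, 1.90 against 1.54 to 1.6 for inflammasome genes and 3.12 against 2.45 to 2.54 for costimulation and adhesion genes, and its change of Cd69 was 9.27 against 7.41 to 7.76. It also had the largest change of Cxcl10, 9.81 against 7.70 to 8.15, with 113 untreated counts of this gene, the fewest of the 10 mice. NDI1 mouse 460 had the smallest changes of Il1b (7.47 against 8.78 to 9.19) and Ptgs2 (8.21 against 9.49 to 9.94), with 105 untreated counts of Il1b, the most of the 10 mice, and the largest change of Ccl7 (9.66 against 7.67 to 8.19), with 3 untreated counts. NDI1 mouse 503 had the largest change of Nos2, 12.8 against 10.6 to 11.0, with 0 untreated counts. In NDI1 mouse 521, 6430548M08Rik changed by -3.09 against -4.53 to -4.14.

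Among WT mice, mouse 520 had the largest change of Il1a, 10.4 against 8.22 to 8.58, with 0 untreated counts, and of the macrophage identity genes, 0.322 against 0.165 to 0.196 (mean paired log2 change). WT mouse 453 had a mean change of 0.112 for nuclear complex I subunits against -0.0445 to -0.0179. Where an untreated library held 0 counts, the paired change depends on the prior count of 2.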

How the results depend on the processing

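With total counts only, 1124 genes were called at least 2-fold higher and 4643 at least 2-fold lower, and with at least 10 counts required in every library, 1228 were called at least 2-fold lower. With total counts the log2 fold changes of these named genes turned to -0.042 (Dld), -0.24 (Dlst), -0.16 (Ndufs4), -0.37 (Ndufa1), -0.47 (mt-Co1), -0.55 (mt-Nd5), -0.36 (Fabp4), -0.48 (Cry1), -0.14 (Rps20) and -0.58 (1700037C18Rik). With upper-quartile factors mt-Co1 was at -0.033, mt-Nd5 at -0.11, Cry1 at -0.046 and 1700037C18Rik at -0.15. Ckb was at 0.0366 with RLE factors and 0.0368 with DESeq2, and between -0.0662 and 0.0185 when single mice were left out, as 1700037C18Rik was between -0.061 and 0.25. The slope difference between genotypes lay between -0.0340 (without NDI1 mouse 461) and 0.0185 (without WT mouse 449). Without the replicate block, 8736 genes were called in the pooled comparison, 7597 in WT and 7622 in NDI1 mice, and 10 of 178 named genes lost their call: Cd200r1, Asl, Egln3, mt-Co1, mt-Nd5, Scd1, Fabp4, H2-Ab1, Cry1 and Ctsd. With RLE factors and with DESeq2, Fosb, Ctsd and Cd200r1 lost their call. Leaving out single mice gave 9394 to 9534 pooled calls and 0 genes with a genotype difference each time. Without WT mouse 496 and NDI1 mouse 503, a choice made after seeing the data, Fosb, Fabp4, Cry1 and Ctsd lost their call and 0 of 37 list medians moved beyond the spread between mice, against 37 with total counts, 28 with upper-quartile factors, 3 with RLE factors, 3 with DESeq2 and 0 without the block. The cause of these changes was not tested, and depth limits what can be said of genes with a few counts per library.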

Other observations

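Gene families outside the lists above, chosen after their values were seen, also moved unevenly. Of 306 tested genes whose symbols start with Zfp, mostly zinc finger proteins, 235 were called lower and 41 higher, and 121 (39.5%) were at least 2-fold lower, against 17.7% of all tested genes. Their median log2 fold change was -0.77 (-1.46 with total counts), and their median untreated level was 7.22 CPM, against 21.8 CPM for all tested genes. Of 28 Tbc1d genes, which encode GTPase-activating proteins for Rab GTPases, 20 were called lower and 5 higher (median -0.85, or -1.54 with total counts), and of 18 autophagy genes with Atg symbols 12 were lower and 4 higher (median -0.81, or -1.50 with total counts), where 45.6% of all tested genes were called lower. Of 12 Parp genes, 8 were called higher, all by at least 2-fold, and 4 lower, where 37.5% and 45.6% of all tested genes were (median 2.01, or 1.32 with total counts).

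Genes that fell at least 4-fold and kept a mean of at least 10 CPM with LPS (70 genes) had a median SD between mice of 0.282 at rest and 0.364 with LPS, and the SD was larger at rest in 25.7% of them, near the 28.0% of genes that were not called.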
